A study of Arabidopsis thaliana with 15 samples.

Results

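Leaves of the Arabidopsis thaliana rps2 mutant were compared with leaves of the Col-0 wild type at 0 h, with 3 arrays in each group. These 6 arrays are all those at 0 h in a series of 15 arrays. They were picked by their labels of genotype and time, with earlier results of these data known. The series followed the response to Pseudomonas syringae pv. maculicola (Psm) that carries the effector AvrRpt2. RPS2 is an intracellular nucleotide-binding leucine-rich repeat receptor that guards the plant protein RIN4 and triggers defence when AvrRpt2 removes it, so that mutants without RPS2 do not recognise the effector. Leaf transcripts also follow the circadian clock, in which sets of morning and evening genes repress one another in turn, and many genes of starch turnover, cold protection and cell growth follow the clock and the light. The comparison at 0 h gives the baseline difference between the genotypes against which later times after infiltration are read.

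The wild type was labelled Col-0, genotype WT, and the mutant was labelled rps2 with no allele and no backcross named. All plants were 4 weeks old and grown on soil at 22 °C with 12 h of light and 12 h of darkness. Mature leaves of both genotypes were infiltrated with Psm:AvrRpt2 at an OD of 0.01 in 10 mM MgSO4, and both groups carry the label 0 h for this treatment. The labels give no untreated or mock-infiltrated leaves, no clock time of harvest and no growth or hybridisation batch, so genotype cannot be told apart from a difference in any of these. The arrays of a group are numbered as replicates, and nothing says whether they came from separate plants, so the p-values measure the spread between these arrays, which may be technical.

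Each value was the log2 signal of a probe set less that probe set's own median over the 15 arrays. The values therefore gave differences between arrays but no level that could be compared between genes and no detection limit. The probe set of RPS2 had no gene name in the annotation used, so the mutated gene was not analysed here as a check of the labels, and leaf marker genes could not be checked by level. The number of arrays limited the precision. Among the probe sets tested, the median standard error of a difference was 0.0864 (log2). Of the remaining arrays, the library labelled rps2 10 h replicate 3 stood apart from its group. It differed from the rps2 0 h arrays by an SD of 0.17 to 0.2 over all probe sets and from the other 10 h arrays of rps2 by 0.942 to 0.949. That array was kept out of every fit except where its inclusion is stated.

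The genotypes differed widely at 0 h. Of 22746 probe sets tested with limma, 6856 (30.1%) passed an adjusted p of 0.05, with 3656 (16.1%) higher and 3200 (14.1%) lower in rps2. A difference of at least 1 (log2) was reached by 1221 of these (5.37%), 583 higher (2.56%) and 638 lower (2.8%), and at 4 or more there were 6 higher and 16 lower. Most differences were small, since the median absolute difference over all probe sets was 0.144 and the quantile at 0.95 was 1.04. The 3 arrays of one genotype did not overlap with the 3 of the other at 9609 probe sets (42.2%). Arrays of the same genotype differed by an SD of 0.182 to 0.24 over all probe sets (6 pairs), whereas arrays of different genotypes differed by 0.507 to 0.57 (9 pairs).

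The split between higher and lower calls rested on the scale. The poly-A spike-ins, bacterial transcripts added to each RNA sample before labelling, averaged -0.0965 ± 0.0833 (SD, n = 3) in Col-0 and 0.0672 ± 0.0479 (SD, n = 3) in rps2. Centring the arrays on these spike-ins moved the median difference of all probe sets from 0.00309 to -0.161, and 26.2% of the calls were then higher in rps2 against 53.3% on the deposited scale. Differences below are on the deposited scale. Its arrays were quantile-normalised, so a median difference close to 0 follows largely from the processing and is no ground to prefer that scale. No gene named below as passing the test at 0 h changed direction between the 2 scales. The shift of 0.164 between the scales was smaller than the smallest called difference of 0.195, so no call could reverse. In a fit of all 15 arrays, whose shared spread takes in rps2 10 h replicate 3, 3624 probe sets passed, and of the genes named below as called 14 lost the call (IAA29, HAT2, EXO, PORB, GTR1, AT5G12050, EXLB1, SWEET4, JRG21, SGT1A, SAG101, SBPASE, CHLM and UGT78D2).

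**Figure D1:**
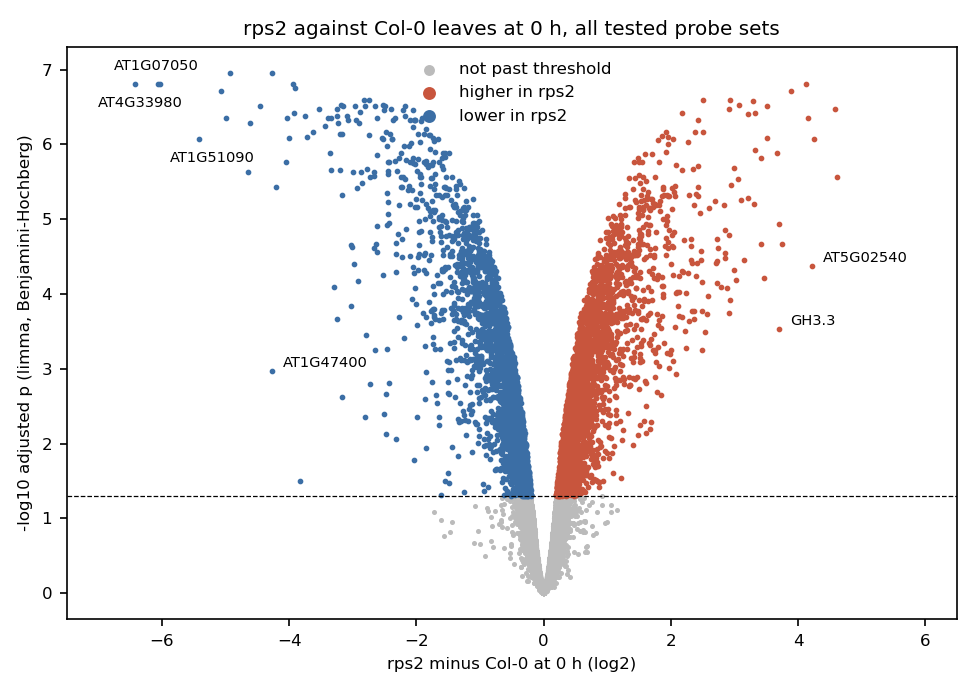
Each point is 1 of 22746 probe sets, with the rps2 minus Col-0 difference at 0 h (log2) on the horizontal axis and -log10 of limma's adjusted p on the vertical axis. The dashed line marks an adjusted p of 0.05. The lower side reached -6.43 at AT1G07050, and 16 called probe sets lay at or below -4 against 6 at or above 4.

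Evening genes of the clock held 2 of the 3 deepest differences among the named genes. COR27, whose protein joins the clock, light signalling and the cold response, had log2 values of 0.46, 0.14 and 0.73 in Col-0 and of -5.42, -5.7 and -5.73 in rps2. The rps2 arrays lay far below every Col-0 array, and the transcript was 66.5-fold lower in rps2 (-6.06 ± 0.15, SE, adjusted p = 1.57e-07). For AT4G33980, placed in the same list, the Col-0 values were 1.75, 1.48 and 1.99 and the rps2 values -4.37, -4.39 and -4.1, again without overlap (-6.03 ± 0.13, adjusted p = 1.57e-07). GIGANTEA (GI), an evening protein that stabilises a photoreceptor of the F-box type and promotes flowering in long days, stood at 2.02, 1.92 and 1.95 in Col-0 and at -0.46, -0.22 and 0.00 in rps2. All 3 Col-0 arrays were above all 3 rps2 arrays, and GI was 4.55-fold lower in rps2 (-2.19 ± 0.11, adjusted p = 2.86e-06). All 3 measured genes of the 16 on the evening list were thus lower, with a median of -6.03, beside 14.1% of all probe sets. This list and the others not marked as chosen after values were seen were written with earlier results of these data known.

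Morning genes of the clock were covered by 2 of 16 listed loci and showed no such depth. AT5G52660 was lower in rps2 (-0.56 ± 0.10, adjusted p = 0.00242), with 0.12, 0.41 and 0.21 in Col-0 and -0.18, -0.39 and -0.35 in rps2. AT4G01280 had a difference of -0.01 ± 0.09 (adjusted p = 0.977), and its groups overlapped. The core morning genes of the clock were not among the named probe sets and were not analysed here.

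The few measured genes of the photoperiod and light signalling lists moved the other way. AT1G69570, the 1 measured locus of 21 on the photoperiod list, had -0.59, -0.55 and -0.46 in Col-0 and 1.61, 1.71 and 1.6 in rps2. Its groups were tight and far apart, and it was 4.5-fold higher in rps2 (2.17 ± 0.07, adjusted p = 3.82e-07). Both measured genes of the 34 on the light signalling list were higher, beside 16.1% of all probe sets. FHL, which carries the photoreceptor phytochrome A into the nucleus, had 0.02, 0.03 and 0.35 in Col-0 and 1.95, 1.94 and 2.4 in rps2 (1.96 ± 0.14, adjusted p = 2.05e-05). HYH, a relative of the light-signalling transcription factor HY5, had -1.32, -1.15 and -1.4 in Col-0 and -0.02, 0.59 and 0.00 in rps2 (1.48 ± 0.16, adjusted p = 0.000179). Neither gene overlapped between the genotypes, though for HYH rps2 replicate 2 lay above the other 2 mutant arrays.

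Most measured genes of cold and dehydration protection were lower in the mutant. Of the 35 on the list, 5 were measured and 4 of these were lower, beside 14.1% of all probe sets, with a median of -2.99. The remaining member had a difference of 0.37 and did not pass the test. COR15B, which encodes a chloroplast protein that protects membranes on freezing, had 2.89, 2.83 and 2.86 in Col-0 and -0.06, -0.61 and -0.33 in rps2. Its neighbour and close relative COR15A had 0.91, 0.94 and 0.83 in Col-0 and -1.75, -2.4 and -2.15 in rps2. In both genes every rps2 array lay below every Col-0 array, and the transcripts were 9.16-fold and 7.97-fold lower (adjusted p = 7.3e-07 and 2.36e-06). The dehydrin LTI30 stood at 0.00, 0.11 and -0.07 in Col-0 and at -3.0, -3.23 and -3.29 in rps2, which was 9.1-fold lower (-3.19 ± 0.09, adjusted p = 2.93e-07). COR47, another dehydrin, had a smaller difference of -1.45 ± 0.08 (adjusted p = 5.48e-06) with groups as well separated. COR15A and COR15B are close paralogs, so their probe sets may share signal.

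Transcripts of starch turnover were also lower. Of 21 listed genes 4 were measured, and 3 of these were lower and none higher, beside 14.1% of all probe sets lower, with a median of -1.34. PWD, the phosphoglucan water dikinase that prepares the starch granule for breakdown, had 2.72, 2.82 and 2.74 in Col-0 and -0.11, -0.14 and 0.10 in rps2. No array of one genotype came within 2 units of the other, and PWD was 6.99-fold lower in rps2 (-2.81 ± 0.08, adjusted p = 3.04e-07). DPE1, which rearranges the short glucans left by starch breakdown, had 2.02, 2.06 and 2.02 in Col-0 and 0.19, -0.01 and 0.00 in rps2 (-1.97 ± 0.08, adjusted p = 7.3e-07). APL3, a large subunit of the ADP-glucose pyrophosphorylase that feeds starch synthesis, was lower by less (-0.71 ± 0.09, adjusted p = 0.000409). The branching enzyme gene SBE2.2 did not pass the test (0.07 ± 0.08, adjusted p = 0.584).

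Both measured genes of the 16 on the sugar starvation list were higher in rps2, beside 16.1% of all probe sets. EXO had -2.27, -2.36 and -2.7 in Col-0 and -0.69, 0.00 and -0.52 in rps2 (2.04 ± 0.18, adjusted p = 5.65e-05). MCCA, a subunit of the methylcrotonyl-CoA carboxylase of leucine breakdown, had 0.23, 0.15 and 0.24 in Col-0 and 1.23, 1.05 and 1.37 in rps2 (1.01 ± 0.09, adjusted p = 6.83e-05). A pair of genes chosen after their values were seen belongs to the same area. AKINBETA1, a subunit of the energy-sensing kinase SnRK1, was 3.66-fold higher in rps2, with 0.00, -0.01 and 0.29 in Col-0 and 1.93, 1.79 and 2.17 in rps2 (adjusted p = 1e-05). TMT2, a sugar transporter of the vacuolar membrane, was 4.25-fold lower, with 2.24, 2.21 and 2.12 in Col-0 and 0.26, 0.04 and 0.00 in rps2 (adjusted p = 9.62e-07). Neither overlapped between the genotypes.

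**Figure D2:**
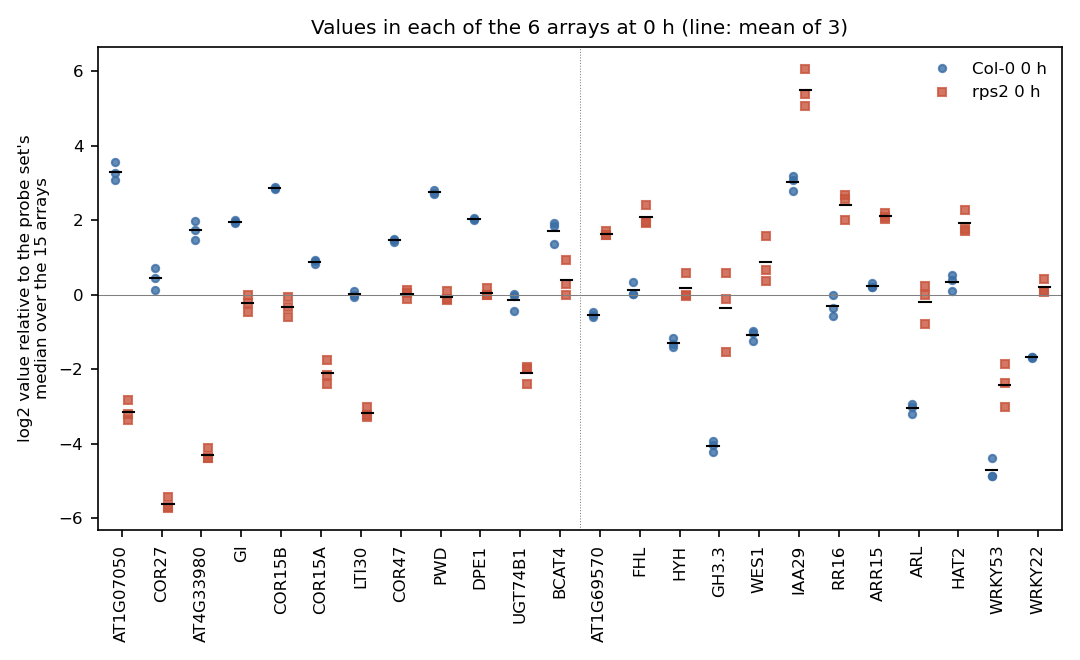
Points are the log2 values of the 6 arrays at 0 h relative to each probe set's median over 15 arrays, for 12 genes lower in rps2 on the left of the dotted line and 12 genes higher on the right. Short lines are means of 3 arrays. In each of the 24 genes the Col-0 and rps2 points do not overlap, and the rps2 points are spread furthest in GH3.3. All 24 were picked from called genes, so their separation is no independent result, and 42.2% of all probe sets did not overlap.

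Auxin-responsive transcripts were higher in the mutant. Of 31 listed genes 4 were measured, and 3 of these were higher and none lower, beside 16.1% of all probe sets higher, with a median of 2.22. GH3.3, an enzyme that joins auxin to amino acids, had -3.93, -4.23 and -4.04 in Col-0 and -1.54, -0.12 and 0.59 in rps2. The mutant arrays were all above the wild type but differed among themselves by over 2 units, and the difference was 3.71 ± 0.44 (adjusted p = 0.000296). Its relative WES1, also called GH3.5, had -0.98, -1.01 and -1.24 in Col-0 and 0.36, 0.68 and 1.57 in rps2, with rps2 replicate 3 the highest in both genes (1.95 ± 0.26, adjusted p = 0.000607). IAA29, a repressor of the Aux/IAA family whose own transcription is raised by auxin, had 2.78, 3.08 and 3.19 in Col-0 and 5.06, 5.4 and 6.06 in rps2, a 5.62-fold difference without overlap (2.49 ± 0.23, adjusted p = 6.98e-05). GH3.1 did not pass the test (-0.01 ± 0.11, adjusted p = 0.949), and its groups overlapped.

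Cytokinin feedback genes, a list chosen after their values were seen, were higher as well. ARR15 and RR16, both type-A response regulators that dampen cytokinin signalling, were the 2 measured members of 10, beside 16.1% of all probe sets higher. ARR15 had 0.21, 0.32 and 0.21 in Col-0 and 2.04, 2.19 and 2.08 in rps2 (1.86 ± 0.07, adjusted p = 7.74e-07). RR16 had -0.35, 0.00 and -0.56 in Col-0 and 2.69, 2.57 and 2.0 in rps2 (2.72 ± 0.19, adjusted p = 1.82e-05). The mutant arrays of both genes lay above every wild-type array. UGT76C2, an enzyme that inactivates cytokinins by N-glucosylation and that was also chosen after its value was seen, was 2.92-fold higher (1.55 ± 0.07, adjusted p = 1.72e-06).

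Growth genes differed in both directions, as did all probe sets (16.1% higher and 14.1% lower). Of 30 genes listed for cell wall growth, gibberellin and brassinosteroid 8 were measured, of which 2 were higher, 2 lower and 4 not past the threshold, with a median of -0.04. HAT2, a homeodomain-leucine zipper transcription factor of auxin and shade responses, had 0.11, 0.40 and 0.52 in Col-0 and 1.73, 1.77 and 2.27 in rps2 (1.58 ± 0.16, adjusted p = 0.000123). XTH33, which remodels xyloglucan in the wall, was higher (1.19 ± 0.16, adjusted p = 0.000608), whereas the gibberellin receptor gene GID1A was lower (-0.72 ± 0.08, adjusted p = 0.00027). ARL, a promoter of cell expansion and among the 15 named genes with the largest higher values, had -3.01, -3.19 and -2.93 in Col-0 and -0.79, 0.00 and 0.23 in rps2. That was a 7.23-fold difference without overlap (adjusted p = 3.27e-05). Among families defined by symbol after values were seen, 3 of 9 XTH genes were called, all higher, beside 16.1% of all probe sets higher. XTH19 was the furthest (1.61 ± 0.26, adjusted p = 0.00156). Of 18 expansin genes 4 were higher and 3 lower, beside 30.1% of all probe sets called, with EXLA1 (1.41 ± 0.20) and EXLA2 (1.12 ± 0.17) above Col-0 and EXPB3 (-1.24 ± 0.20) and EXLB1 (-1.14 ± 0.11) below it.

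Transcripts of the iron deficiency response were lower, in a list chosen after values were seen, with all 3 measured members of 16 below Col-0, beside 14.1% of all probe sets. The median was -2.81. AT1G47400, the deepest of them, had 2.66, 3.2 and 3.34 in Col-0 and -2.5, -1.63 and 0.52 in rps2 (-4.27 ± 0.64, adjusted p = 0.00107). BHLH101, a transcription factor that activates iron uptake genes, had 2.68, 3.28 and 3.52 in Col-0 and -0.53, -0.26 and 1.84 in rps2 (-2.81 ± 0.54, adjusted p = 0.00443). The mutant arrays lay below the wild type in both, and rps2 replicate 3 stood closest to Col-0 by over 2 units. PYE, a transcription factor that restrains the iron deficiency response, had 1.21, 1.11 and 1.43 in Col-0 and -1.8, -1.22 and 0.66 in rps2 (-2.04 ± 0.52, adjusted p = 0.0164), with the same array closest to Col-0. The call of PYE was lost without Col-0 replicate 1 (-2.06), without Col-0 replicate 3 (-1.95) or without rps2 replicate 2 (-1.82). Without rps2 replicate 3 the differences were -5.13 for AT1G47400, -3.55 for BHLH101 and -2.76 for PYE. AT5G05250, named here after its value was seen, had the same order of arrays, with 2.78, 2.79 and 3.22 in Col-0 and -1.3, -0.71 and 1.28 in rps2 (-3.17 ± 0.55, adjusted p = 0.00238).

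Glucosinolate genes were lower in rps2, in all 3 measured of 25 listed, beside 14.1% of all probe sets, with a median of -1.31. UGT74B1, which adds the glucose to the glucosinolate core, had -0.04, -0.42 and 0.01 in Col-0 and -1.93, -1.99 and -2.4 in rps2 (-1.95 ± 0.15, adjusted p = 2.95e-05). BCAT4, which starts the chain elongation of methionine for aliphatic glucosinolates, had 1.93, 1.37 and 1.85 in Col-0 and 0.94, 0.28 and 0.00 in rps2 (-1.31 ± 0.23, adjusted p = 0.00291). AT2G31790 had a difference of -1.06 ± 0.09 (adjusted p = 3.73e-05). No array of rps2 reached the Col-0 values of any of the 3 genes. GTR1, a glucosinolate transporter chosen after its value was seen, was 3.6-fold lower (-1.85 ± 0.16, adjusted p = 5.23e-05). The flavonoid list had 1 higher, beside 16.1% of all probe sets, 1 lower, beside 14.1%, and 2 not past the threshold among 4 measured of 20 and a median of -0.12. UGT78D1, which adds rhamnose to flavonols, was 3.33-fold lower (1.99, 1.59 and 1.73 in Col-0 against 0.00, 0.11 and 0.00 in rps2, adjusted p = 7.51e-06). UGT78D2, which adds glucose at the same position, was higher by 0.40 (adjusted p = 0.00765), and this call was lost on the poly-A scale (0.238).

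Genes of pattern and effector immunity included 4 higher and none lower in rps2 among 9 measured of 35, with a median of 0.54. That share of higher genes stood beside 16.1% of all probe sets. WRKY53, a transcription factor of defence and senescence, had -4.38, -4.87 and -4.87 in Col-0 and -3.0, -2.38 and -1.86 in rps2 (2.29 ± 0.26, adjusted p = 0.000231). WRKY22, a transcription factor downstream of the flagellin receptor, had -1.66, -1.67 and -1.7 in Col-0 and 0.07, 0.11 and 0.43 in rps2 (1.88 ± 0.10, adjusted p = 3.75e-06). The mutant arrays were above the wild type in both genes, which were 4.9-fold and 3.69-fold higher. BIK1, a cytoplasmic kinase that relays signals from pattern receptors, was higher by 0.67 (adjusted p = 0.000621). SGT1A, a co-chaperone of intracellular immune receptors, was higher by 0.59 (adjusted p = 0.00576). WRKY47, named after its value was seen, also passed, so that 3 of 6 genes with a WRKY symbol were higher (1.71 ± 0.15, adjusted p = 5.35e-05).

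The salicylic acid and pipecolic acid list showed 1 higher and none lower among 5 measured of 30, which is near the 16.1% of all probe sets that were higher, with a median of -0.000102. On the poly-A scale none of the 5 was higher and 2 were lower, beside 1974 higher and 5570 lower of all 22746 probe sets. SAG101, a partner of the immune regulator EDS1, was higher by 0.43 (adjusted p = 0.00575), a call that was lost on the poly-A scale (0.264). UGT76B1, a glucosyltransferase that inactivates salicylic acid and N-hydroxypipecolic acid, had -6.55, -7.56 and -7.47 in Col-0 and -7.69, -7.72 and -7.61 in rps2, and its difference of -0.48 did not pass the test (adjusted p = 0.168). Col-0 replicate 1 was the highest of the 6 arrays at UGT76B1, and the difference without it was -0.157. On the poly-A scale the difference was -0.643 and passed the threshold.

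Among 6 measured jasmonate genes of 36 listed, 1 was lower, which is near the 14.1% of all probe sets, and 5 were not past the threshold, with a median of -0.63. On the poly-A scale 3 were lower, beside 5570 of all 22746 probe sets lower on that scale. JRG21, an oxidase that inactivates jasmonic acid, had -3.43, -5.59 and -4.71 in Col-0 and -5.79, -6.23 and -6.17 in rps2 (-1.49 ± 0.44, adjusted p = 0.0337). Its difference was -0.913 without Col-0 replicate 1 and -1.99 without Col-0 replicate 2. The call was lost without Col-0 replicate 3 (-1.55), without rps2 replicate 2 (-1.4) or without rps2 replicate 3 (-1.43). AT5G05600 spread more widely, with -3.21, -6.16 and -3.68 in Col-0 and -6.22, -6.27 and -5.39 in rps2, so that the groups overlapped and the difference of -1.61 did not pass the test (adjusted p = 0.106). Without Col-0 replicate 2, the low array of the wild type, the difference of AT5G05600 was -2.51 and passed the threshold, and without Col-0 replicate 1 it was -1.04 and did not. It also passed in the fit of 14 arrays, with the replicate block and on the poly-A scale (-1.77). In both genes Col-0 replicate 1 was the highest array and Col-0 replicate 2 the lowest of its group.

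Of 8 measured genes of the light reactions 1 was higher and 7 did not pass the threshold, a share near the 16.1% of all probe sets, with a median of 0.03. The 1 called gene was LHCB4.3, an antenna protein of photosystem II, with 0.15, 0.00 and -0.41 in Col-0 and 1.49, 1.3 and 0.74 in rps2 (1.26 ± 0.20, adjusted p = 0.00162). The 69 genes encoded in the plastid were grouped after values were seen. Of these 14 were higher and 3 lower, beside 16.1% and 14.1% of all probe sets. On the poly-A scale 5 were higher and 8 lower, beside 1974 and 5570 of all 22746 probe sets. LHCB4.2, a close relative of LHCB4.3, had 0.14 ± 0.07 and the photosystem I subunit gene PSAE-1 -0.05 ± 0.07, and neither passed the test. In the Calvin-Benson cycle SBPASE, a phosphatase of carbon regeneration, was the 1 higher gene of 4 (0.36 ± 0.08, adjusted p = 0.00988), and this call was lost on the poly-A scale (0.194). Chlorophyll synthesis had 1 higher and 2 lower genes of 7. Neither list's share of calls was far from the 30.1% of all probe sets. PORB, which reduces protochlorophyllide in the light, had 2.8, 2.9 and 2.89 in Col-0 and 1.76, 1.7 and 1.99 in rps2 and was 2.07-fold lower (adjusted p = 5.03e-05). GSA1, an early enzyme of the pathway, was lower by a smaller amount (-0.43 ± 0.08, adjusted p = 0.00366). CHLM, a methyltransferase of the pathway, was higher by 0.30 (adjusted p = 0.0126), and this call was lost on the poly-A scale (0.135).

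Markers of single leaf cell types were few. TRY, a repressor of trichome fate, was higher in rps2 (1.44 ± 0.12, adjusted p = 4.43e-05), and FMA, which fixes guard cell identity, was lower (-0.46 ± 0.07, adjusted p = 0.00185). The phloem sucrose exporter gene SWEET11 had 0.10 ± 0.09 and PYK10, a root beta-glucosidase gene, 0.06 ± 0.08, and neither passed the test. Each stood alone for its cell type, and in whole leaves fewer cells of a type and less RNA per cell cannot be told apart. The part of cell composition in the differences above was not tested.

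**Figure D3:**
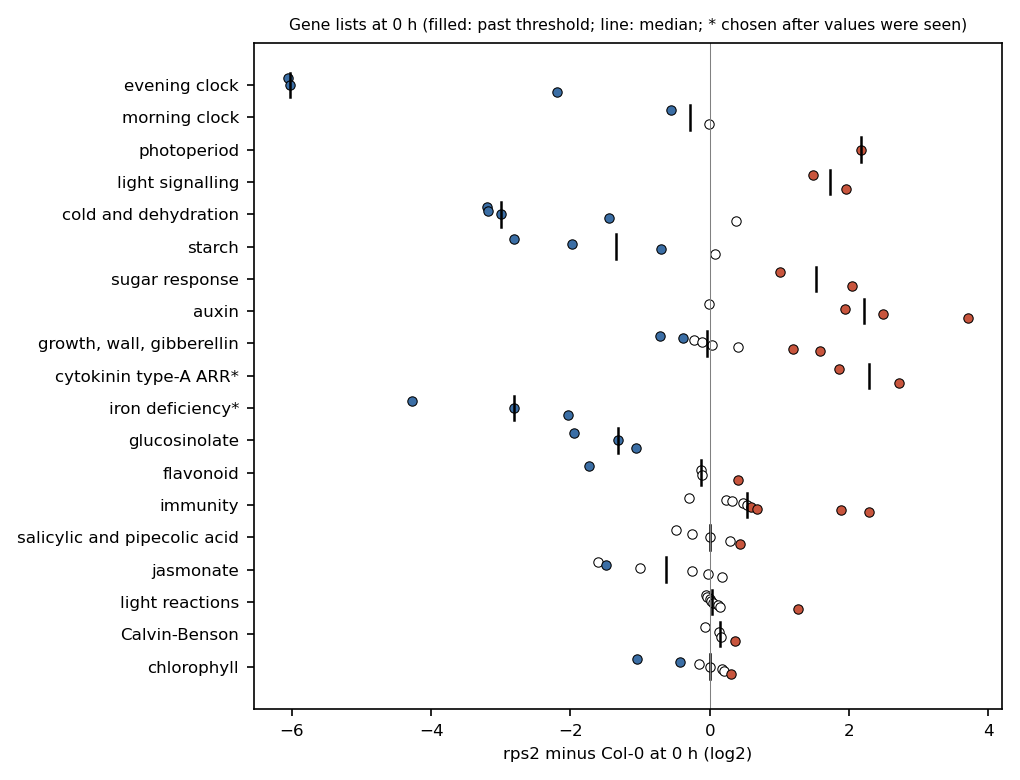
Each point is a measured gene of a list at its rps2 minus Col-0 difference at 0 h (log2), filled where it passed an adjusted p of 0.05. Upright lines are list medians, and an asterisk marks a list chosen after values were seen. The lists without an asterisk were written with earlier results of these data known. The called genes for evening clock, cold, starch, iron and glucosinolates lie left of 0 and those for auxin, light signalling and cytokinin right of it, whereas the light reactions gather at a median of 0.03.

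The 15 largest differences in each direction among named genes held further loci that the gene table lists by code alone, without a symbol or role. AT1G07050 was the lowest of all, with 3.27, 3.07 and 3.56 in Col-0 and -3.37, -3.19 and -2.83 in rps2 (-6.43 ± 0.16, adjusted p = 1.57e-07). AT1G51090 followed COR27 and AT4G33980, with 4.45, 4.3 and 4.31 in Col-0 and -0.80, -0.74 and -1.68 in rps2 (-5.42 ± 0.22, adjusted p = 8.46e-07). In these loci as in all 30 the genotypes did not overlap, which the rule for naming them required. AT5G62360 (-4.21), AT1G68600 (-4.05), AT4G16146 (-3.92), AT2G39920 (-3.91) and AT2G21130 (-3.75) came after AT1G47400. The lower group ended with AT2G38465 (-3.53), AT4G36010 (-3.34), AT1G20030 (-3.25), AT1G16850 (-3.25) and AT4G30650 (-3.24).

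On the higher side AT5G02540 led, with 0.12, 0.65 and 0.40 in Col-0 and 3.72, 4.75 and 5.37 in rps2 (4.22 ± 0.35, adjusted p = 4.25e-05). AT5G62280 had 1.0, 1.6 and 1.83 in Col-0 and 4.81, 5.05 and 5.82 in rps2 (3.75 ± 0.28, adjusted p = 2.15e-05). For both loci rps2 replicate 1 was the lowest and replicate 3 the highest of the mutant arrays, the order also seen in GH3.3, WES1, IAA29 and WRKY53. After GH3.3 came AT5G28630 (3.43), AT2G41250 (3.32), AT4G18340 (3.22), AT4G27450 (3.1), AT1G22890 (3.08), AT1G21050 (3.06) and AT1G64500 (2.95). AT5G57760 (2.89), AT5G12050 (2.69) and AT4G21870 (2.56) closed the group together with ARL and RR16. Of all called probe sets whose groups did not overlap, 8 of the 15 lowest and 11 of the 15 highest are not among these loci. Each had no listed gene, several genes or a gene that was read from another probe set.

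In all, 14 gene families were defined by symbol after values were seen, and their counts stand beside 16.1% of all probe sets higher and 14.1% lower. Of 6 CLE genes, which encode short signalling peptides, 4 were lower and none higher, with a median of -0.86. CLE41 and CLE44, whose shared peptide keeps the stem cells of the vascular cambium dividing, had differences of -1.34 ± 0.17 and -1.23 ± 0.13 (adjusted p = 0.000373 and 0.000156). CLE26 (-0.88 ± 0.12) and CLE21 (-0.84 ± 0.11) were the other 2. Of 14 SWEET sugar transporters 1 was higher and 3 lower, a share of calls near that of all probe sets. SWEET2, a sugar carrier of the vacuolar membrane, had -1.83, -1.29 and -1.61 in Col-0 and 0.84, 0.92 and 0.61 in rps2 and was 5.15-fold higher (adjusted p = 6.53e-06). SWEET17, a vacuolar fructose carrier, was lower (-1.44 ± 0.16, adjusted p = 0.000187), as was SWEET4 (-1.12 ± 0.21, adjusted p = 0.00362).

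Of 4 methionine sulfoxide reductases of the B type, which repair oxidised methionine, 2 were lower, beside 14.1% of all probe sets. MSRB5 had 2.85, 2.13 and 2.85 in Col-0 and 0.22, 0.00 and -0.26 in rps2, and MSRB6 had 1.63, 1.65 and 1.95 in Col-0 and 0.07, 0.23 and 0.00 in rps2. They were 6.14-fold and 3.12-fold lower (adjusted p = 2.77e-05 and 1e-05), but they are tandem paralogs whose signals may be shared. Among 7 ATG8 genes, whose proteins coat autophagosomes, 2 were higher, 1 lower and 4 not past the threshold, which is near the 30.1% of all probe sets called. ATG8D was lower (-1.95 ± 0.13, adjusted p = 1.04e-05) and ATG8E higher (1.16 ± 0.14, adjusted p = 0.000316), each with no overlap between the genotypes. Of the families not named so far, 5 of 8 ALDH genes were lower and none higher, and 3 of 7 IAA genes were higher and none lower. In the fit of all 15 arrays 3 ALDH genes were lower and no IAA gene was called. Of all 22746 probe sets 1875 were higher and 1749 lower in that fit. Calls were mixed among 47 UGT genes (8 higher, 10 lower), 29 SCPL genes (4 and 6), 20 BGLU genes (1 and 5), 22 TBL genes (4 and 2) and 7 CML genes (1 and 1). On the poly-A scale these counts were 5 and 17 for UGT, 1 and 8 for SCPL, 0 and 8 for BGLU, 2 and 5 for TBL and 1 and 1 for CML, and the expansin count was 3 and 5. The counts there were 2 and 0 for IAA, 0 and 6 for ALDH, 1 and 1 for ATG8 and 3 and 1 for WRKY. On that scale 1 XTH gene was also lower, and of all 22746 probe sets 1974 were higher and 5570 lower.

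The genotype difference at 0 h was then set beside the one at 10 h after infiltration, measured on other arrays, in a fit of 14 arrays without rps2 10 h replicate 3. At 10 h, 13065 probe sets (57.4%) differed between the genotypes, 6326 (27.8%) higher and 6739 (29.6%) lower in rps2. The poly-A spike-ins averaged 0.9215, 1.125 and 0.8959 in the Col-0 10 h arrays and -0.005 and -0.4935 in rps2 10 h replicates 1 and 2. Neither the 10 h fit nor the test between times was run on the poly-A scale. All counts, shares and directions at 10 h therefore rest on the deposited scale, and how far they would move was not tested. Of the 638 probe sets lower by at least 1 at 0 h, 24.0% were also lower at 10 h and 58.3% were higher. Of the 583 higher by at least 1, 41.0% were also higher at 10 h and 35.8% were lower. The difference at 10 h less that at 0 h passed the threshold at 11773 probe sets (51.8%). With rps2 10 h replicate 3 included, 12514 probe sets differed at 10 h, 6109 higher and 6405 lower, and 10112 passed the test between times. The shares called in the opposite direction were then 46.1% for the lower group and 28.0% for the higher one. The 28.0% is near the share of all 22746 probe sets that were lower at 10 h in that fit.

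Single genes showed how the 0 h difference stood against later times. COR27 was low in the rps2 0 h arrays alone among the groups, if rps2 10 h replicate 3 is set aside, and its genotype difference at 10 h was 0.41 ± 0.16 (-1.62 with that array). At 10 h COR15B was higher in rps2 (3.07 ± 0.14, adjusted p = 2.73e-11), and PWD likewise (2.36 ± 0.10, adjusted p = 1.42e-11), so that both differences had the opposite sign to those at 0 h. GI had a difference of -1.37 ± 0.13 at 10 h without rps2 10 h replicate 3 (adjusted p = 1.75e-07) and of -0.347 with it, which did not pass the threshold. Both GI values are on the deposited scale and would be raised on the poly-A scale, which was not fitted at 10 h. Whether GI was still lower in rps2 on that scale was not tested. GH3.3 turned from 3.71 ± 0.44 at 0 h to -4.14 ± 0.40 at 10 h (adjusted p at 10 h = 2.73e-07). In Col-0 the 10 h values of GH3.3 were 2.73, 3.09 and 2.75, well above its own 0 h values. IAA29 was high at 0 h in both genotypes and had a genotype difference of 0.25 ± 0.24 at 10 h (adjusted p = 0.407). With rps2 10 h replicate 3 that difference was 2.2 and did not pass the threshold either. With the same array included, the 10 h difference was 2.64 for COR15B, 1.76 for PWD and -3.69 for GH3.3, and each passed the threshold. WRKY22, higher in rps2 at 0 h, was lower at 10 h (-2.99 ± 0.13, adjusted p = 2.87e-11). With that array its difference was -2.62 and passed as well.

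**Figure D4:**
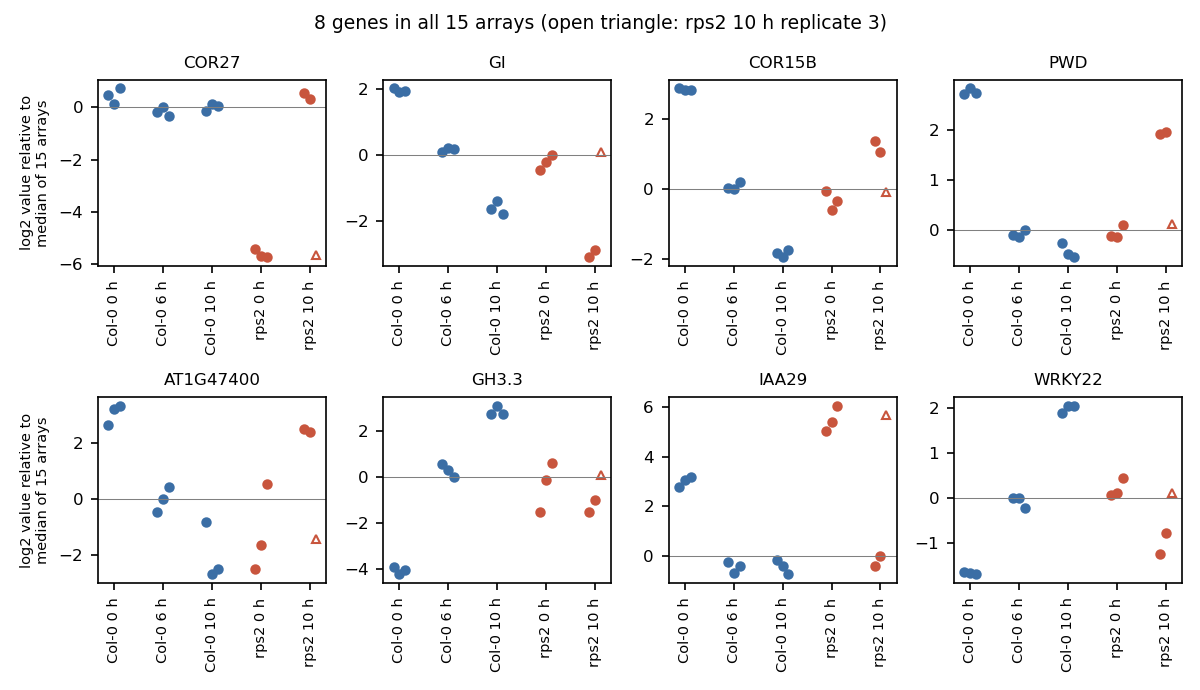
Points are the log2 values of single arrays relative to each probe set's median over 15 arrays, for 8 genes in the 5 groups, with Col-0 in blue and rps2 in red. The open triangle is rps2 10 h replicate 3, which lies within 1 unit of an rps2 0 h array in each of the 8 genes. The 0 h groups do not overlap in any of the 8 panels, whose genes were picked from those called at 0 h.

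The 30 named genes were chosen for their differences at 0 h, so the test between times, which uses the same 0 h arrays, is not independent of that choice and is not given for them. At 10 h, beside 27.8% of all probe sets higher and 29.6% lower, 8 of the 15 lower genes were higher in rps2 and 2 were lower, while 5 of the 15 higher genes were lower and 6 were higher. AT4G36010 kept its direction (-1.87 at 10 h), as did AT4G21870 (3.49). With rps2 10 h replicate 3 included, 10 of the 30 were called in the opposite direction at 10 h and 10 in the same direction. In that fit 6109 of all 22746 probe sets were higher at 10 h and 6405 lower.

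**Figure D5:**
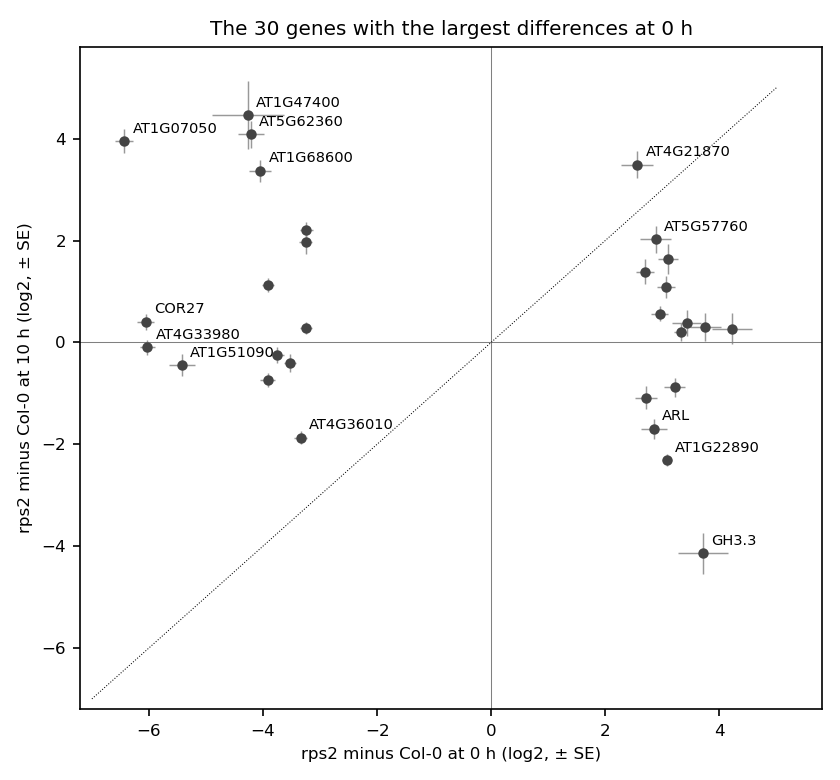
Each point is 1 of the 30 named genes, with the rps2 minus Col-0 difference at 0 h on the horizontal axis and at 10 h on the vertical axis, both in log2 with bars of ± SE. The dotted diagonal marks equal differences, and rps2 10 h replicate 3 is left out. Both axes are on the deposited scale. AT1G07050 and GH3.3 lie in the quadrants of opposite sign, and AT4G36010 and AT4G21870 in those of the same sign.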

How the data were processed

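Per the submitters' processing notes, the arrays were processed with RMA, which corrects background, quantile-normalises the arrays and summarises probes on a log2 scale, with no version given. In the deposited log2 table each of 22810 probe sets was centred, with its median over the 15 arrays at 0, a step that no source used here describes, and they ran from -8.93 to 7.49. A filter on dim probes was not possible with such values. After 64 control probe sets were set aside, 22746 were tested, of which 13513 had 1 gene in the platform annotation, 503 had several and 8730 were not listed. Names came from RefSeq's gene table (TAIR10.1), which held 13436 of these single-gene probe sets. RPS2 and PR1 were not analysed here.

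The main test was limma 3.58.1 in R 4.3.3 on the 6 arrays at 0 h, with a mean per genotype, two-sided moderated tests and Benjamini-Hochberg adjustment over all tested probe sets at 0.05. Errors after ± are standard errors of the log2 difference unless SD is written. The test between times used 14 arrays, without rps2 10 h replicate 3. The named genes were the 15 highest and the 15 lowest single-gene probe sets past the threshold with groups that did not overlap, the measured genes of the clock lists, and up to 4 genes of each other list by the size of their difference, of which the text gives most. For a gene with several probe sets, 1 was read by the ending of its name. Of 533 entries in 28 lists, 84 were measured, and 5 lists (nitrate, xylem, dividing cells, flower and senescence) had no measured gene. The measured genes of the touch and heat shock lists, 2 and 1, did not pass the threshold. The genotypes, times and lists were chosen with earlier results of these data known. Same-numbered arrays of the genotypes were not paired, since their deviations correlated by 0.0797, 0.0415 and 0.0534. Alternatives covered the arrays fitted, a replicate block, the variance model, array weights (statmod 1.5.0), scaling, shared-transcript probe sets, thresholds and each array left out.

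Tested on simulated data drawn for this comparison (22746 probe sets), the fit recovered 42% of 100 simulated differences of 0.5 and 92% of 100 of size 1 and made 5 false calls. Only these probe sets were changed there, with independent normal noise, whereas 30.1% of probe sets were called in the real data. The adjustment depends on that share, so these rates do not carry over to the 6856 real calls. Promoter and protein sequences were not used here.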

Additional observations from a re-analysis of the deposited data

Results flagged for a closer look

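For 13 of the 30 named genes, every rps2 array at 0 h lay on one side of the Col-0 arrays and every rps2 array at 10 h on the opposite side (rps2 10 h replicate 3 left out). These genes were chosen for their differences at 0 h, so a test between times, which uses the same 0 h arrays, is not independent of that choice and lends no support. Among those lower at 0 h, the genotype difference was higher in rps2 at 10 h for AT1G07050 (3.95), AT1G47400 (4.47), AT5G62360 (4.09), AT1G68600 (3.37), AT4G30650 (2.21), AT1G20030 (1.96), AT2G39920 (1.13) and COR27 (0.41). Among those higher at 0 h, it was lower in rps2 at 10 h for GH3.3 (-4.14), AT1G22890 (-2.31), ARL (-1.7), RR16 (-1.09) and AT4G18340 (-0.886). With rps2 10 h replicate 3 included, the 10 h difference was -1.62 for COR27, -0.13 for RR16 and -0.0591 for AT4G18340, and none of these 3 passed the threshold at 10 h. All these values are on the deposited scale. The poly-A spike-ins were higher in the Col-0 10 h arrays (0.8959 to 1.125) than in rps2 10 h replicates 1 and 2 (-0.005 and -0.4935). Every 10 h difference would be raised on the poly-A scale, so those lower in rps2 would shrink or change sign. That scale was not fitted at 10 h.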

How the results depend on the processing

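No gene named as called at 0 h changed direction under any of the alternatives run, and 77 of 92 kept the call in all of them. The 10 h fit and the test between times were not run on the poly-A scale. Besides the losses given with the results, the counts moved as follows. With all 15 arrays 3624 probe sets passed (1875 higher, 1749 lower), on the poly-A scale 1974 were higher and 5570 lower, at an adjusted p of 0.01 there were 4518 (2388 higher, 2130 lower), and with a difference of at least 1 there were 1221 (583 higher, 638 lower). Leaving out each array in turn gave 5654 to 6193 calls, 2942 to 3353 of them higher and 2630 to 2864 lower, and 10600 to 11727 for the test between times. The replicate number as a block gave 6669 calls at 0 h and 11540 between times, although the numbers do not pair the arrays by the check used. Each array did correlate best with its own number, which is a hint from the data and not from the design. The trended and robust fit kept the direction of PYE but not its call. Values near 0 changed sign for genes that were not called. AT4G01280 was 0.0278 with array weights and -0.0844 to 0.0565 with an array left out, and GH3.1 was -0.123 to 0.0441 with an array left out. On the poly-A scale SBE2.2 was -0.093, LHCB4.2 -0.0198, SWEET11 -0.0685, PYK10 -0.102 and the Calvin-Benson median -0.0155. UGT76B1 was 0.0606 after a repeated quantile normalisation. A description of promoter motifs was planned and not run. Since no signal over background is given, what dim probe sets can show is not known.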
